A study of Mus musculus with 4 samples.

Results

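The genes described are 10 transcription factors that mark or specify the cell types of the ovary: Foxl2, Wt1, Gata4, Gata6, Nr5a1, Nr5a2, Nr2f2, Tcf21, Lhx9 and Emx2. They were chosen by name, and each was found by its symbol among the 32285 genes counted. The data are droplet single-cell RNA sequencing of whole ovaries from prepubertal mice, with 1 library for each of 4 groups. Control mice received PBS or saline, and the other groups received doxorubicin, recombinant human anti-Müllerian hormone (AMH), or both. Doxorubicin was dosed at 3 mg/kg and the hormone at 0.75 mg/kg. Treatment of the mice, aged postnatal day 25, was by 2 weekly doses, the last one given 4 hours before the ovaries were removed. The labels name no genetic modification, and the strain is not given in the sources used here. One ovary from each of 5 animals went into a single pool per group, so each group is 1 sample: the spread between animals was not measured, no test between groups was made, and every interval below covers counting error only.

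Ovarian somatic cells share a gonadal origin and are told apart in part by which of these factors they keep. Foxl2, a forkhead factor, maintains granulosa cell identity. Wt1, Lhx9 and Emx2 act in the early gonad and remain in the epithelium that covers the ovary. Gata4 and Gata6 are zinc finger factors of granulosa and theca cells. Nr5a1 (SF-1) and Nr5a2 (LRH-1) are related nuclear receptors that bind the same short DNA element, Nr5a1 being a regulator of steroid-producing cells and Nr5a2 of granulosa cells in growing follicles. Nr2f2 (COUP-TFII) and Tcf21, a nuclear receptor and a basic helix-loop-helix factor, are known from the interstitial cells between follicles. AMH is made by the granulosa cells of small growing follicles and restrains the recruitment and growth of follicles, while doxorubicin is a DNA-damaging chemotherapy that is toxic to the ovary.

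In GENCODE M21 (GRCm38, the mm10 build that the submitters' processing notes name) all 10 are protein-coding genes. Foxl2 lies at chr9:98955288-98958543 on the plus strand and has a single exon. Wt1 lies at chr2:105126529-105173616 (plus strand), Gata4 at chr14:63198922-63271692 (minus), Nr5a1 at chr2:38692656-38714542 (minus) and Nr5a2 at chr1:136842571-136960448 (minus). Nr2f2 lies at chr7:70351944-70366735 (minus), Tcf21 at chr10:22817281-22820174 (minus), Lhx9 at chr1:138825186-138848577 (minus) and Emx2 at chr19:59458372-59465357 (plus). The position of Gata6, also annotated there, is not printed here. Foxl2, Gata6, Nr5a1, Nr2f2, Tcf21 and Emx2 each overlap an annotated gene on the opposite strand (Foxl2os, 1010001N08Rik, Nr5a1os, B130024G19Rik, Gm10824 and Emx2os). The strand setting of the authors' counting is not given in the sources used here.

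RefSeq promoter windows were at hand for 6 of the 10 factors and for 12 of 18 known target genes. The 250 bases upstream of the start site were searched on both strands for the NR5A element AAGGTCA, which Nr5a1 and Nr5a2 bind, and for the GATA element that Gata4 and Gata6 bind, spelled AGATAA in one form, AGATAG in another, TGATAA in a further one and TGATAG in the last. The NR5A element was in 0 of the 6 factors and in 1 of the 12 targets (Amhr2, the AMH receptor gene), against 4.08% of 32851 mouse promoters (1271 of 27025 genes). Counting a gene when any of its windows held one, a GATA element was in 4 of the 6 factors and in 6 of the 12 targets. Of all promoters, counted singly, 26.5% held one. That is not the same unit, since a gene with several windows has more chances to hold a match, so the shares are not compared. The 3 windows below are shown because they belong to the NR5A receptor of granulosa cells, to Nr2f2, which was higher in theca-like cells of the AMH libraries, and to the target that held the NR5A element. They are from RefSeq on GRCm38.p6, written 5′ to 3′ on the gene's own strand. The capitals mark GATA elements, read on either strand, and in Amhr2 also the NR5A element, which comes first. They are Nr5a2 at chr1:136960449-136960698 (minus strand), Nr2f2 at chr7:70366747-70366996 (minus strand) and Amhr2 at chr15:102445117-102445366 (plus strand).
Nr5a2: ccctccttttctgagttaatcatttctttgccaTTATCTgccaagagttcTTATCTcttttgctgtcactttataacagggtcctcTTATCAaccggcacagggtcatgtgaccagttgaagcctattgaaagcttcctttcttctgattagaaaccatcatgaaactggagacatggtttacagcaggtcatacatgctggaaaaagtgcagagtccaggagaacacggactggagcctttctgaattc
Nr2f2: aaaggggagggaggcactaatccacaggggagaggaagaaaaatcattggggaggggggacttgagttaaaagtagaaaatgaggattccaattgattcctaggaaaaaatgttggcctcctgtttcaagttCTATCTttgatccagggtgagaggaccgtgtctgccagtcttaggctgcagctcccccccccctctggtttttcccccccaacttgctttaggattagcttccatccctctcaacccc
Amhr2: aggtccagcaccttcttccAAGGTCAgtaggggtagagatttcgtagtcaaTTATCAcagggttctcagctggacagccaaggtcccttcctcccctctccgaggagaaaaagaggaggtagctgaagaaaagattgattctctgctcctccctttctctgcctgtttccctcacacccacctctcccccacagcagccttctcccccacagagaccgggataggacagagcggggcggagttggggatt
The Nr5a2 window shown held 3 GATA matches, while the window of the second Nr5a2 start site in the table (chr1:136953631-136953880) held 0 and is not shown. The Nr2f2 window held 1, and the Amhr2 window 1 beside the NR5A match. A match is a description of the letters and was not tied to binding in these cells.

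The libraries held 7141 to 9478 cell barcodes and 138647495 to 178279122 unique molecular identifiers (UMIs, the molecule count), with medians of 9834.5 to 13575 UMIs per barcode. Any pair of libraries shared 11 to 24 barcodes, at most 0.281% of the smaller one. After filtering, 5998 to 7827 cells remained in the 3 treated libraries and 7911 in the control. They were clustered without the factors themselves, and 30 of 32 clusters were given a class by markers that are not transcription factors. Names are written "granulosa-like" and so on, because they were rebuilt here. Of 13 classes, 10 had at least 25 cells in each library and 7 had at least 50. The granulosa-like class held 1638, 1574, 2015 and 2427 cells of the libraries listed as control, doxorubicin, doxorubicin+AMH, AMH, which is how all values below are listed. The theca-like class held 829, 589, 737 and 893 cells, the stroma-like class 3098, 2232, 2228 and 2264, and the surface epithelial-like class only 102, 91, 33 and 63. Left out of the classes were 2 unnamed clusters, one led by Kcnq5 with 500, 394, 292 and 570 cells and one with 177 cells in the doxorubicin library and at most 1 in any other. Levels are given as CPM, the UMIs of the gene among every 1000000 UMIs of the class in that library, with 95% Poisson intervals, and the levels of different genes are not compared.

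For 8 of the 10 factors the same class was highest in all 4 libraries. Nr5a2 was highest in granulosa-like cells (687, 498, 492 and 470 CPM), without overlap with the next class, erythroid-like cells (14.5 to 117 CPM). Nr5a1 was highest in theca-like cells in all 4 libraries, at 56.0 to 179 CPM, above the 22.0 to 31.0 CPM of blood endothelial-like cells, the next class. Tcf21 was highest in stroma-like cells (192 to 292 CPM), followed without overlap by smooth muscle-like cells (99.2 to 187 CPM), and was at 1.14 to 2.33 CPM in granulosa-like cells.

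**Figure D1:**
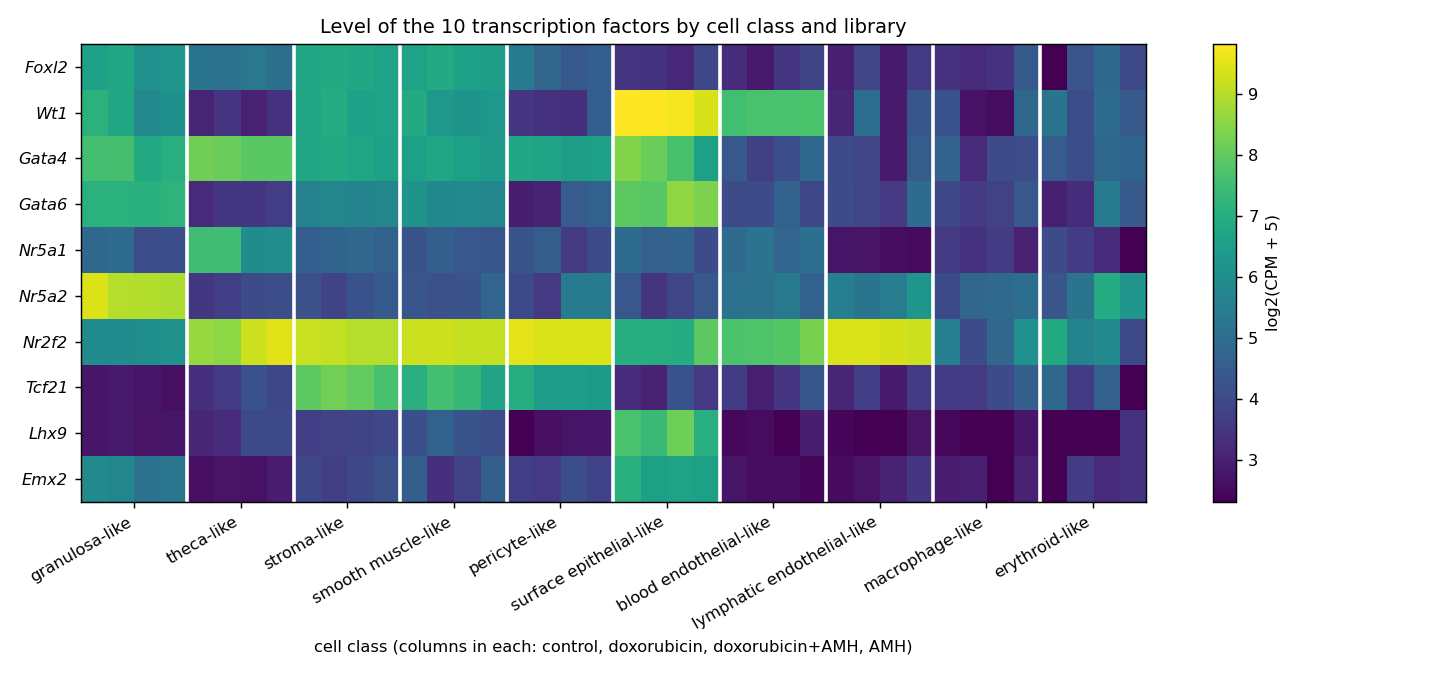
Level of each factor, as log2(CPM + 5), in the 10 classes with at least 25 cells in every library; the 4 columns of a class are, from left to right, control, doxorubicin, doxorubicin+AMH, AMH. Nr5a2 stands out in granulosa-like cells (470 to 687 CPM), Nr5a1 in theca-like cells (56.0 to 179 CPM), Tcf21 in stroma-like cells (192 to 292 CPM), and Wt1, Lhx9, Gata6 and Emx2 in surface epithelial-like cells.

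The surface epithelial-like class had the highest Wt1 (895, 899, 839 and 651 CPM), Gata6 (246, 229, 375 and 318 CPM), Lhx9 (197, 164, 280 and 124 CPM) and Emx2 (130, 91.1, 95.2 and 91.1 CPM). For each of these 4 the next class did not overlap it. It was blood endothelial-like cells for Wt1 (184 to 201 CPM), granulosa-like cells for Gata6 (129 to 143 CPM) and for Emx2 (30.7 to 55.2 CPM), and smooth muscle-like cells for Lhx9 (12.5 to 20.2 CPM). Gata6 had its lowest class mean in theca-like cells, at 4.23 to 7.87 CPM. Lhx9 divided the surface epithelial-like cells. The cluster led by Lgals7 and Upk3b held 263, 262, 280 and 253 CPM of Lhx9, while the cluster led by C3 and Slpi held 0, 0.897 and 1.23 CPM in the 3 libraries with such cells (0 of 818010 UMIs in the control library, which allows up to 3.67 CPM). The doxorubicin+AMH library had 0 cells of the second cluster, so the class levels of Lhx9 follow the mix of the 2 clusters. Gata4 divided them too: it was 447, 434, 192 and 182 CPM in the first cluster and 8.56, 2.69 and 3.69 CPM in the second.

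Foxl2 was highest in stroma-like cells and was not limited to granulosa-like cells. Its level in the latter was 92.2, 106, 64.6 and 70.4 CPM, against 107, 115, 107 and 95.1 CPM in stroma-like cells and 85.9 to 114 CPM in smooth muscle-like cells, and the ranges of these 3 classes overlap. The summed level of the 10 granulosa markers was 6418 to 8485 CPM in granulosa-like and 410 to 610 CPM in stroma-like cells, all 10 being above 0 in both. Within the stroma-like class Foxl2 ranged from 20.2 to 35.7 CPM in the cluster led by Dpt and Clec3b to 168 to 225 CPM in the cluster led by Pdgfra and Frem1. That second cluster also held the class's highest Wt1 (316 to 526 CPM).

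Gata4 and Nr2f2 were the 2 factors whose highest class differed between libraries. Gata4 was highest in surface epithelial-like cells of the control and doxorubicin libraries (337 and 272 CPM) and in theca-like cells of the other 2 (237 and 235 CPM); in theca-like cells it was 288 and 271 CPM in the first 2. Nr2f2 was highest in pericyte-like cells in 3 libraries and in theca-like cells of the AMH library. Its ranges overlapped from rank to rank across pericyte-like (667 to 730 CPM), lymphatic endothelial-like (598 to 673 CPM), smooth muscle-like (570 to 599 CPM), stroma-like (505 to 576 CPM) and theca-like cells (366 to 705 CPM), so these neighbours in the order cannot be separated.

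Shares of cells with a UMI were read beside lymphocytes, which should lack most of these factors. With every cell thinned to 2000 UMIs, which leaves out shallower cells, Nr5a2 had a UMI in 49.0% to 65.1% of granulosa-like cells but also in 1.61% to 7.32% of T or NK lymphocyte-like cells, where it is not a known product. Nr5a1 and Tcf21 had one in at most 1.61% of those lymphocytes in any library and Wt1 in at most 1.82%. Nr2f2 had one in 1.61%, 5%, 9.09% and 4.88%, at median depths of 5006.5 to 5812 UMIs. The lymphocyte values rest on 20 to 62 cells a library, and these cells also carried other markers unevenly (6 stroma markers at 67.2 to 1669 CPM, 5 erythroid markers at 62036 CPM in the doxorubicin library). Free RNA and mixed cells cannot be told apart here. A share of this size in another class is read as background. This holds for Tcf21 in granulosa-like cells (0.301% to 0.685%) and Wt1 in theca-like cells (0.358% to 1.13%).

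**Figure D2:**
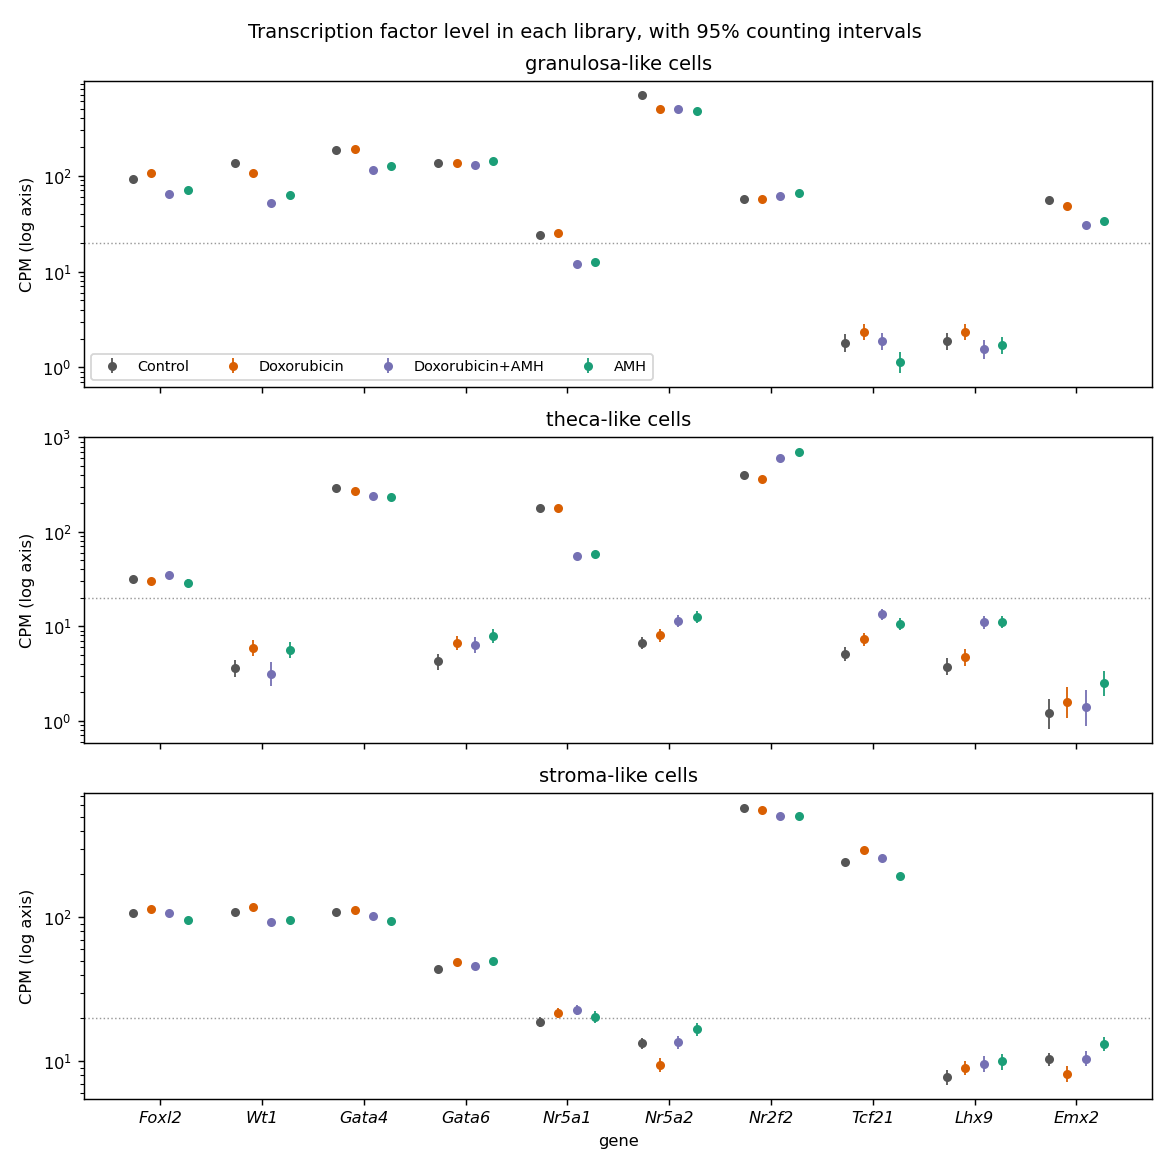
CPM of the 10 factors on a log axis in granulosa-like, theca-like and stroma-like cells; each point is 1 library with its 95% Poisson interval, and the dotted line is the mean of 20 CPM that a gene had to reach to be compared. In theca-like cells Nr5a1 is at 179 and 178 CPM in the libraries without AMH and at 56.0 and 58.8 CPM in those with it.

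Libraries were compared in 4 ways: AMH with control, doxorubicin+AMH with doxorubicin, doxorubicin with control, and doxorubicin+AMH with AMH. The first 2 ask what goes with AMH, and the last 2 what goes with doxorubicin. These comparisons share libraries. A difference is the log2 ratio of CPM + 5, computed where the 4 libraries averaged 20 CPM or more, and a pair of a factor and a class was counted when past 1.5-fold. Of 30 such pairs in granulosa-like, theca-like and stroma-like cells, 18 reached 20 CPM. Past 1.5-fold were 4 pairs for AMH against control and 6 for doxorubicin+AMH against doxorubicin, and 0 for both comparisons of doxorubicin in these 3 classes. Among all genes tested, the share past 1.5-fold in granulosa-like cells was 3.06%, 3.15%, 0.289% and 0.411% in the order of the 4 comparisons. In theca-like cells it was 14.5%, 13.7%, 0.431% and 0.671%, and in stroma-like cells 0.93%, 1.06%, 0.42% and 0.54%.

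**Figure D3:**
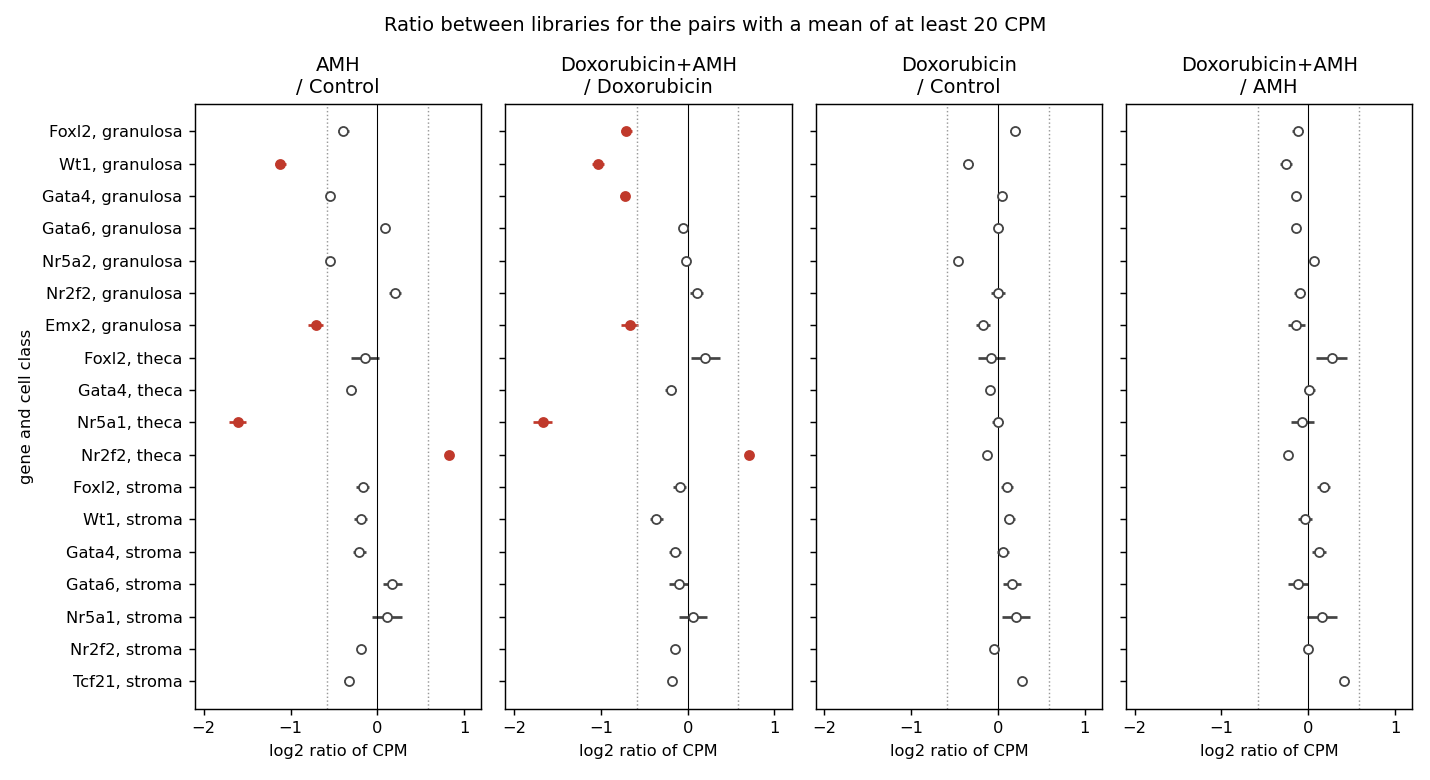
Log2 ratio of CPM between libraries for the 18 pairs of a factor and a class averaging 20 CPM or more, without a pseudocount; bars are exact 95% intervals for counting error, dotted lines mark 1.5-fold, and filled points are past it on the log2(CPM + 5) scale. The filled points are in the 2 comparisons that differ by AMH (4 and 6 pairs), in granulosa-like and theca-like cells.

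In granulosa-like cells Wt1 and Emx2 were lower past 1.5-fold in both AMH comparisons, and Foxl2 and Gata4 in 1 of them. Wt1 was at 136, 107, 52.3 and 62.6 CPM (Poisson intervals 132 to 139, 104 to 110, 50.4 to 54.3 and 60.5 to 64.7). Both libraries with AMH lay below both without. The log2 ratio was -1.06 for AMH against control and -0.96 for doxorubicin+AMH against doxorubicin. Emx2 was at 55.2, 48.8, 30.7 and 33.7 CPM, and its log2 ratios were -0.64 and -0.59. Foxl2 (92.2, 106, 64.6 and 70.4 CPM) had log2 ratios of -0.37 and -0.67, and Gata4 (186, 191, 116 and 127 CPM) of -0.53 and -0.70. For these factors too the 2 AMH libraries were the lowest. Of the 7 factors at 20 CPM or more in this class, 2 were lower past 1.5-fold in the first comparison and 4 in the second, and the median log2 ratio over the 7 was -0.53 and -0.59, against -0.05 and -0.02 over all genes. Lower genes past 1.5-fold made up 2.1% and 2.33% of all genes.

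Gata6, at 134, 134, 129 and 143 CPM, and Nr2f2, at 56.9, 56.9, 61.1 and 65.5 CPM, differed little between libraries at the level of the granulosa-like class: the log2 ratios in the 2 AMH comparisons were 0.09 and -0.05 for Gata6 and 0.19 and 0.09 for Nr2f2. The exact interval of the plain log2 ratio for Gata6 was 0.04 to 0.14 in the first and -0.10 to -0.01 in the second. Single clusters differed more. Within the 6 clusters the medians were -0.02 and -0.04 for Gata6 and 0.15 and -0.03 for Nr2f2. Gata6 in the cluster led by Hsd17b1 and Bex4, with 69, 151, 103 and 174 cells of a median 3663 UMIs, was at 36.4, 49.5, 45.0 and 123 CPM and reached a log2 ratio of 1.63 for AMH against control. Nr2f2 there was at 69.8, 93.0, 33.2 and 69.6 CPM and had a log2 ratio of -1.36 for doxorubicin+AMH against doxorubicin. These values rest on 12 to 161 and 14 to 91 UMIs a library, in a cluster where 29% and 23.6% of all genes were past 1.5-fold in the 2 comparisons. Nr5a2 was highest in the control library, and the other 3 lay close together. Its log2 ratio was -0.54 for AMH against control, -0.46 for doxorubicin against control and -0.02 for doxorubicin+AMH against doxorubicin.

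The mix and depth of granulosa-like cells moved with these differences. The median depth of the class was 23718.5, 23749, 21125 and 16067 UMIs. The cluster led by Spef2 and Unc5c, whose cells had a median of only 3095.5 UMIs, made up 7.81%, 8.13%, 10.8% and 17.8% of the class, and the cluster led by Inhba and Inhbb 9.58%, 10.8%, 16.9% and 15.7%. The cluster led by Cntn4, Slc18a2 and Amh, a gene of small growing follicles, made up 22.6%, 21.0%, 9.33% and 11.3% of the class, and it held the class's highest Wt1 among clusters present in all libraries (341, 252, 207 and 237 CPM). It also held more Emx2 (126, 93.5, 74.4 and 94.8 CPM), Gata4 (349, 363, 227 and 250 CPM) and Foxl2 (163, 178, 117 and 138 CPM) than the class as a whole. Within the 6 clusters with at least 50 cells in every library, the median log2 ratio of Wt1 was -0.38 for AMH against control and -0.15 for doxorubicin+AMH against doxorubicin, with 4 of 6 clusters below 0 in each. Foxl2 was below 0 in 6 of 6 and 5 of 6 clusters (medians -0.21 and -0.29) and Gata4 in 5 of 6 in both (medians -0.25 and -0.27). The exception for Gata4 in the first comparison was the cluster led by Hsd17b1 and Bex4, at 0.83 (interval of the plain ratio 0.04 to 1.92, from 36.4 to 68.9 CPM), the only cluster past 1.5-fold for it there. Emx2 was below 0 in 4 of 6 in both (medians -0.14 and -0.09). When the clusters of the class were weighted equally, none of Wt1 (-0.44 and -0.22), Emx2 (-0.155 and -0.14), Foxl2 (-0.27 and -0.34) and Gata4 (-0.26 and -0.34) was past 1.5-fold, so the size of the class-level differences depended on how clusters were weighted. Without the cluster led by Amh and Wfdc10, which held 1, 78, 1 and 2 cells, the log2 ratios for doxorubicin+AMH against doxorubicin were -0.93 for Wt1, -0.63 for Foxl2 and -0.70 for Gata4, and Emx2 was no longer past 1.5-fold (-0.57).

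Wt1 was not even across these clusters. In the cluster led by Mctp1 and Inhba it was at 81.4, 78.4, 42.9 and 41.4 CPM, log2 ratios of -0.90 and -0.80, where 2.49% and 2.7% of genes were past 1.5-fold. In the cluster led by Cntn4 and Slc18a2 the log2 ratios of Wt1 were -0.52 and -0.28. In the cluster led by Spef2 and Unc5c it was at 132, 52.1, 76.6 and 105 CPM, so that the doxorubicin library was the lowest there.

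Within the 6 granulosa-like clusters Nr5a1 was lower in the AMH libraries, while Nr5a2 varied from cluster to cluster. Nr5a1 was low in the class, at 24.1, 25.5, 11.9 and 12.7 CPM (633 to 1207 UMIs a library), and its mean of 18.6 CPM kept it out of the counts above. Its log2 ratios were -0.72 and -0.85, and it was below 0 in 6 of 6 clusters in both AMH comparisons, with medians of -0.65 and -0.86 and with 4 of 6 intervals below 0 in each. This leaves out the unnamed cluster led by Kcnq5, where Nr5a1 was at 24.1, 26.3, 26.3 and 23.2 CPM without such a difference. With a stricter mitochondrial filter a cluster led by Kcnq5 was classed as granulosa-like, so the count depends on how it is named. Nr5a2 was below 0 in 5 of 6 clusters in both, with medians of -0.59 and -0.18, and ranged from -1.39 to 0.53 in the first comparison and from -0.98 to 0.16 in the second. The largest difference of Nr5a2 was in the cluster led by Cntn4 and Slc18a2, where it stood at 581, 398, 199 and 218 CPM. That gives log2 ratios of -1.39 and -0.98, in a cluster where 8.58% and 7.83% of genes were past 1.5-fold. The doxorubicin library was below the control for Nr5a2 in 5 of 6 clusters (median -0.36).

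**Figure D4:**
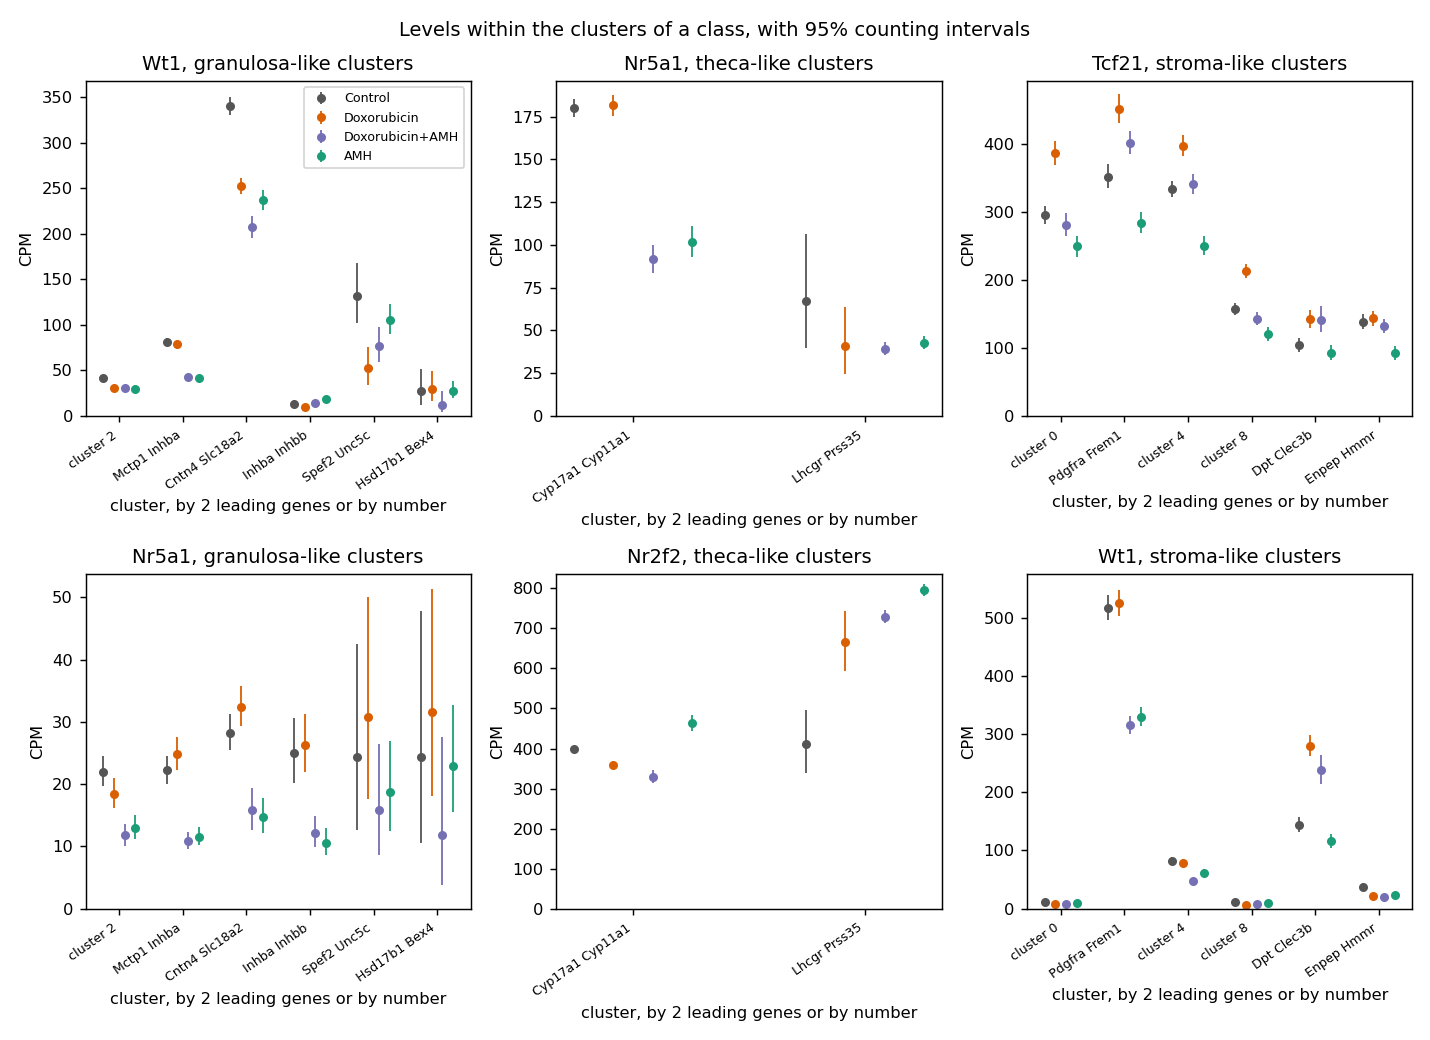
CPM with 95% Poisson intervals in each library for Wt1 and Nr5a1 in granulosa-like clusters, Nr5a1 and Nr2f2 in theca-like clusters, and Tcf21 and Wt1 in stroma-like clusters, each cluster with at least 25 cells in every library and labelled by 2 leading genes where the text describes it, otherwise by its number. Nr5a1 is lower in the AMH libraries within the theca-like cluster led by Cyp17a1 (91.5 and 102 CPM against 180 and 182 CPM), while Nr2f2 there shows no common direction.

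In theca-like cells, which make androgens, Nr5a1 was at 179, 178, 56.0 and 58.8 CPM (4607, 3485, 877 and 1031 UMIs). The 2 AMH libraries were alike and far below the others, with log2 ratios of -1.53 for AMH against control and -1.59 for doxorubicin+AMH against doxorubicin (exact intervals of the plain ratio -1.70 to -1.51 and -1.78 to -1.56). At 2000 UMIs per cell, 30.0%, 27.1%, 7.92% and 8.38% of theca-like cells had a Nr5a1 UMI. Nr2f2 went the other way, at 399, 366, 600 and 705 CPM, with log2 ratios of 0.81 and 0.70. The share of theca-like cells with a Nr2f2 UMI at 2000 UMIs was 47.4%, 50%, 64.6% and 70.4%, against 1.61% to 9.09% of T or NK lymphocyte-like cells. Gata4 stayed within 1.5-fold, with log2 ratios of -0.29 and -0.19.

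Different clusters held most of the theca-like class in the libraries with and without AMH. The cluster led by Cyp17a1 and Cyp11a1, genes of steroid synthesis, had 797, 562, 181 and 169 cells, and the cluster led by Lhcgr and Prss35 had 32, 27, 556 and 724 cells. The summed level of the 7 theca markers used for naming differed as well, at 18346, 17547, 7388 and 6507 CPM, all 7 being above 0, and the median depth of the class was 20568, 24344, 13886 and 12453 UMIs. The 6 stroma markers summed to 744, 822, 1459 and 1346 CPM in theca-like cells, all 6 being above 0, and their part in the higher Nr2f2 was not tested. Within the Cyp17a1 cluster Nr5a1 was still lower in the AMH libraries, at 180, 182, 91.5 and 102 CPM, with log2 ratios of -0.79 (interval of the plain ratio -0.96 to -0.69) and -0.95 (-1.13 to -0.85). In that cluster 11.8% and 13.1% of all genes were past 1.5-fold. Nr2f2 within it was at 399, 359, 330 and 463 CPM, log2 ratios of 0.21 and -0.12, so its higher class level was not found there in both comparisons. In the Lhcgr cluster Nr2f2 was at 412, 665, 729 and 796 CPM and Nr5a1 at 67.5, 40.6, 39.0 and 42.7 CPM, where the first 2 values rest on 32 and 27 cells. Whether the AMH libraries hold other cells or the same cells with other levels of these genes cannot be told apart.

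In stroma-like cells, which lie between follicles, 0 of the 7 factors tested was past 1.5-fold in any of the 4 comparisons. Tcf21 was at 241, 292, 257 and 192 CPM, so both doxorubicin libraries were above their partners without it. The log2 ratio was 0.27 for doxorubicin against control (exact interval of the plain ratio 0.23 to 0.32) and 0.41 for doxorubicin+AMH against AMH (0.36 to 0.47). The doxorubicin library of each comparison was above in 6 of 6 stroma-like clusters, with medians of 0.37 and 0.46. The libraries with AMH were below their partners in 6 of 6 clusters as well (medians -0.34 for AMH against control and -0.19 for doxorubicin+AMH against doxorubicin). Nr2f2 was at 576, 556, 505 and 506 CPM, and Gata6 at 43.9, 49.0, 45.7 and 49.6 CPM. Nr5a1 was at 18.8, 21.7, 22.6 and 20.3 CPM in this class, without the difference seen in theca-like cells (log2 ratios of 0.09 and 0.05).

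Wt1 showed a pattern by cluster that the stroma-like class hides. At class level it was at 109, 119, 92.6 and 95.2 CPM. In the cluster led by Pdgfra and Frem1 it was at 517, 526, 316 and 330 CPM, with log2 ratios of -0.64 for AMH against control and -0.73 for doxorubicin+AMH against doxorubicin, while 1.83% and 1.57% of genes were past 1.5-fold there. That cluster made up 18.4%, 18.4%, 28.2% and 26.0% of the class. Over the 6 stroma-like clusters Wt1 was below 0 in 6 for AMH against control (median -0.35, range -0.64 to -0.12), and in 4 for doxorubicin+AMH against doxorubicin (median -0.15, range -0.73 to 0.19). In the cluster led by Dpt and Clec3b, genes of fibroblasts, it was at 144, 280, 239 and 116 CPM in 297, 203, 135 and 264 cells. Both doxorubicin libraries were the high ones in this cluster, with log2 ratios of 0.94 (exact interval of the plain ratio 0.80 to 1.12) for doxorubicin against control and 1.01 (0.83 to 1.26) for doxorubicin+AMH against AMH. The other clusters did not share this: Wt1 was below 0 in 4 of 6 for the first comparison and in 5 of 6 for the second (medians -0.21 and -0.15). For doxorubicin against control the lowest of the 6 was -0.69, in the cluster led by Enpep and Hmmr (21.2 against 37.3 CPM). Of all genes in the Dpt and Clec3b cluster, 13.6% and 6.74% were past 1.5-fold in these comparisons.

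In the other 4 classes with at least 50 cells a library the same rule gave calls in all 4 comparisons. In smooth muscle-like cells, where 6 factors reached 20 CPM, Wt1 was at 115, 74.3, 68.6 and 74.3 CPM, so that the control library was the highest. Its log2 ratio was -0.60 both for AMH against control and for doxorubicin against control. Tcf21 there was at 126, 187, 155 and 99.2 CPM, with a log2 ratio of 0.62 for doxorubicin+AMH against AMH, the direction seen in stroma-like cells. A cluster led by Des, with more Wt1 (208, 228, 180 and 114 CPM) and less Tcf21 (27.3, 24.9, 41.1 and 11.9 CPM) than the cluster led by Myh11, had 199, 18, 54 and 183 cells of this class. Past 1.5-fold in smooth muscle-like cells were 0.875%, 0.599%, 2.04% and 1.73% of all genes in the comparisons as listed above.

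The remaining calls rest on few UMIs or on classes where many genes differed. In blood endothelial-like cells 2 calls were made, Nr2f2 for AMH against control (0.60, 697 UMIs in each library) and Nr5a2 for doxorubicin+AMH against AMH (0.69, 34 and 45 UMIs), where the shares of all genes were 8.6%, 6.93%, 2.7% and 8.58%. The 6 stroma markers (211, 102, 163 and 817 CPM summed) and the 6 pericyte markers (387, 248, 470 and 653 CPM), all above 0, were also highest in the AMH library of this class, and their part in the higher Nr2f2 was not tested. In macrophage-like cells (8.47%, 17.7%, 11.8% and 11.8% of genes) Nr2f2 was -1.52 for doxorubicin against control and -1.31 for doxorubicin+AMH against AMH, on 8 to 106 UMIs a library, and 0.75 for doxorubicin+AMH against doxorubicin. Markers of 2 classes with more Nr2f2 were lower in the doxorubicin libraries too: the 6 stroma markers summed to 336, 183, 126 and 486 CPM and the 6 smooth muscle markers to 201, 83.5, 58.7 and 667 CPM in macrophage-like cells, all above 0, and their part was not tested. Nr5a2, at 10.9 to 27.7 CPM there, was 1.04 for AMH against control and 0.82 for doxorubicin against control. It reached the 20 CPM mean only through the treated libraries, so these calls are a description. The 10 granulosa markers summed to 346, 423, 574 and 574 CPM in macrophage-like cells, all above 0, and their part in it was not tested. In pericyte-like cells 15.4%, 14.6%, 8.37% and 16.8% of genes were past 1.5-fold. Foxl2 there, at 38.6, 22.9, 15.8 and 18.5 CPM, was -0.89 for AMH against control and -0.64 for doxorubicin against control. It reached the 20 CPM mean only through the control library, where it was high. Tcf21 was -0.60 for AMH against control. Nr5a2, at 6.88 to 37.0 CPM, was 1.41 and 1.81 in the 2 AMH comparisons on 6 to 21 UMIs a library. It reached the 20 CPM mean only through the AMH libraries, where it was high, so these calls are a description. The 10 granulosa markers, all above 0 there, moved with Nr5a2, summing to 287, 281, 993 and 776 CPM in pericyte-like cells, and their part in it was not tested.

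In the surface epithelial-like cluster led by Lgals7 and Upk3b Gata4 was lower in both AMH comparisons and Gata6 higher past 1.5-fold in 1 of them. Gata4 was at 447, 434, 192 and 182 CPM, with log2 ratios of -1.27 (-1.56 to -1.04) and -1.15 (-1.49 to -0.87) in the 2 AMH comparisons. Gata6 was at 241, 205, 375 and 337 CPM, with log2 ratios of 0.47 (0.27 to 0.69), within 1.5-fold, and 0.85 (0.61 to 1.12), past it. Wt1, at 1028, 1085, 839 and 888 CPM, and Lhx9 stayed within 1.5-fold. The cluster had 65, 52, 33 and 30 cells, and 20.9% and 22.3% of all genes were past 1.5-fold in these comparisons. It was chosen for description after its values were seen.

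Other regulators of these cells were read from a list of 28 partner factors and cofactors. In granulosa-like cells 9 of the 28 reached 20 CPM, of which 2 were higher and 0 lower past 1.5-fold for AMH against control and 1 and 0 for doxorubicin+AMH against doxorubicin (medians 0.10 and 0.08). The higher ones were Maf, a leucine zipper factor, at 14.8, 12.0, 38.9 and 44.0 CPM (log2 ratios 1.31 and 1.37), which reached the 20 CPM mean only through the AMH libraries where it was high, and in the first comparison Cited2, a coactivator, at 187, 182, 228 and 306 CPM (0.70 and 0.32). Because Maf entered by its level in those libraries, these counts are a description. Runx1 (0.33 and 0.17) and Foxo1, a forkhead factor of granulosa cells (0.25 and 0.49), came next and were within 1.5-fold. In theca-like cells 12 reached 20 CPM, and 4 were higher and 0 lower in both comparisons (medians 0.39 and 0.05). Among them were Zfpm2, the cofactor of GATA proteins, at 76.6, 80.9, 192 and 196 CPM (1.30 and 1.2), Maf (1.02 and 0.95) and Nr4a1 (0.65 and 0.67). Genes past 1.5-fold and higher made up 6.01% and 5.4% of all genes in theca-like cells. In stroma-like cells 12 reached 20 CPM, and 0 were past 1.5-fold in any of the 4 comparisons. No partner was past it in either doxorubicin comparison in these 3 classes.

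Among 18 known target genes, 11 reached 20 CPM in theca-like cells, and 7 of them were lower past 1.5-fold and 0 higher in both AMH comparisons (medians -1.07 and -1.19, against -0.07 and -0.05 over all genes, of which 8.5% and 8.34% were lower past 1.5-fold). The largest were Cyp17a1, the enzyme that makes androgens (-3.74 and -2.52), Cyp11a1, the first enzyme of steroid synthesis (-2.78 and -2.43), and Insl3, a theca hormone (-1.92 and -1.86). Cyp17a1, Cyp11a1, Hsd3b1 and Star were also markers that named the class, so they are not separate from its choice. In the last comparison Cyp17a1 was 1 of 11 targets past 1.5-fold, with a log2 ratio of 1.16 for doxorubicin+AMH against AMH, beside 0.671% of all genes. In granulosa-like cells 13 targets reached 20 CPM. For AMH against control 2 were lower (Amh at -1.53 and Ihh, a signal to theca cells, at -0.59) and 1 higher (Inhba, an activin subunit, at 0.92). For doxorubicin+AMH against doxorubicin 4 were lower and 3 higher, with Wnt4 at -1.63, Amh at -1.57 and Ihh at -0.86 as the largest. The medians over the 13 were 0.10 and 0.30 in these comparisons, against -0.05 and -0.02 over all genes. Past 1.5-fold in either direction were 3.06% and 3.15% of all genes. Inha, Inhbb and Cyp19a1 of this list are also granulosa naming markers, so they are not separate from the choice of the class. For doxorubicin against control Ihh (0.63) and Wnt4 (0.61) were the 2 of 13 past 1.5-fold, both higher, beside 0.289% of all genes. The 78 cells of the Amh-led cluster are among those of the doxorubicin library. In stroma-like cells 8 reached 20 CPM, and 3 were higher and 1 lower (Prlr, the prolactin receptor, -0.78) for AMH against control, and 3 higher and 2 lower (Prlr, -0.68, and Cyp11a1, -0.77) for doxorubicin+AMH against doxorubicin (medians 0.43 and 0.10). The higher ones were Inha, the inhibin subunit (1.36 and 0.96), Inhba (1.26 and 0.72) and Fst, which encodes follistatin, an activin binding protein (1.00 and 0.66). Inhba and Fst reached the 20 CPM mean only through the AMH libraries, so these counts too are a description. The summed granulosa markers in stroma-like cells were at 410, 437, 589 and 610 CPM, and their part in this was not tested. Inha is itself among those markers, so their sum is not separate from it. Past 1.5-fold in stroma-like cells were 0.93% of all genes for AMH against control and 1.06% for doxorubicin+AMH against doxorubicin. For doxorubicin against control 1 of 8 targets in stroma-like cells (Wnt4, 0.62) and 1 of 11 in theca-like cells (Inhba, 0.78) were past 1.5-fold, both higher. The shares of all genes were 0.42% and 0.431%.

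Overlapping genes were read beside the factors. In theca-like cells Nr5a1os was at 0.399 to 1.98 CPM beside Nr5a1, in granulosa-like cells Foxl2os was at 3.55 to 5.95 CPM beside Foxl2, and in stroma-like cells Gm10824 was at 4.49 to 5.55 CPM beside Tcf21. B130024G19Rik, which overlaps Nr2f2, followed it in theca-like cells at 23.1, 25.3, 36.4 and 54.0 CPM. Emx2os was at 17.1, 18.8, 10.6 and 13.5 CPM in granulosa-like cells, lower in the AMH libraries as Emx2 was. 1010001N08Rik, beside Gata6, was at 39.8 to 46.5 CPM there. Wt1os, the antisense neighbour of Wt1, is not annotated as overlapping it. Its log2 ratios were -0.95 and -1.06 in granulosa-like cells in the 2 AMH comparisons, close to those of Wt1. Since the strand setting is not given, reads of a factor and an opposite-strand gene that overlaps it cannot be told apart.

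Over the 28 points of 7 classes and 4 libraries, the 3 genes most like each factor were found by Pearson's r of log2(CPM + 5). These points share libraries and depth, so r is a description. The genes closest to Wt1 were Wt1os (0.96), Phactr1 (0.96) and Plxna2 (0.90), and those closest to Gata6 were 1010001N08Rik (0.95), Bcat1 (0.94) and Rimklb (0.93). Nr5a2 was closest to Mpped2 (0.98), Apoa4 (0.97) and Inhbb (0.96), the last being a marker used to name granulosa-like cells. For Nr5a1 they were Srd5a1, a steroid reductase (0.92), Prcd (0.92) and Pacs1 (0.91). For Foxl2 they were Clstn2 (0.94), Zfp354c (0.93) and Dync2h1 (0.93), and for Gata4 Sobp (0.97), Smarca1 (0.96) and Akr1cl (0.96). Nr2f2 was nearest to Afap1 (0.97), Pard3b (0.97) and Pde5a (0.96), and Tcf21 to Mdk, a growth factor, Fgf2 and Col16a1, a collagen (0.97 each). Among those nearest to Lhx9 were Ncam1 (0.93) and Naaladl2 (0.92), and Emx2 was nearest to Dok6 (0.94), Ano4 (0.93) and Ank3 (0.93); surface epithelial-like cells, where both are highest, had too few cells to enter. Among the factors themselves the highest r was between Gata6 and Emx2 (0.84) and the lowest between Nr5a2 and Nr2f2 (-0.54). The 2 NR5A receptors were at -0.22.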

How the data were processed

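The authors deposited UMI counts per gene and cell barcode as whole numbers, not normalized, and per the file headers Cell Ranger 7.0.0 wrote them. The submitters' processing notes also name R 4.2.0, Seurat 4.1.0 and build mm10; whether intronic reads were counted is not given in the sources used here. Barcodes were kept from 1000 UMIs upward if mitochondrial genes took no more than 20% of them. Scrublet (scanpy 1.11.5) gave doublet scores within each library, of which the top 0.8% per 1000 cells were dropped. The 4 libraries were clustered together (2000 variable genes, 30 components, 20 neighbours, Leiden at resolution 1), leaving out 45 genes: the factors, partners and antisense genes. Clusters were named by at least 3 markers, and left unnamed where their leading genes went against the name, a rule added after the data were seen. Counts were summed per class and library. Log2 ratios used CPM + 5 and a mean of at least 20 CPM. Intervals are exact (Poisson for CPM, conditional binomial for ratios of 2 libraries, computed without the pseudocount) and cover counting error only. The ratio script was tested on simulated counts. Of 13 alternative settings, 4 were added after the data were seen. Of the partner and target lists, counts are given and the 3 genes with the largest log2 ratio in the class described, with others past 1.5-fold, which like the clusters described singly were picked after their values were seen. The values of 1 gene that these rules name are not reported here. The factors and lists were chosen with earlier results of these data known. Of the 32285 gene IDs, 99.6% were in GENCODE M21.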

Additional observations from a re-analysis of the deposited data

How the results depend on the processing

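Each setting was changed alone. The number of factors with the same highest class was 7 with cells of at least 500 UMIs and 8 under the other settings that bear on it. The number of pairs past 1.5-fold for AMH against control was 3 to 5 under 12 alternatives and 8 when genes averaging 5 CPM or more were tested, which adds low genes. For doxorubicin+AMH against doxorubicin it was 4 to 8 under 12 alternatives and 3 when the clusters of a class were weighted equally; that setting gave 1 pair for doxorubicin against control, which was Tcf21 in theca-like cells and rests on the 27 theca-like cells of 1 cluster in the doxorubicin library. The 3 pairs were Nr5a1 in granulosa-like and in theca-like cells and Tcf21 in theca-like cells, so the lower Wt1, Emx2, Foxl2 and Gata4 of granulosa-like cells and the higher Nr2f2 of theca-like cells (log2 ratio 0.05) were lost there. Nr5a1 in theca-like cells was past 1.5-fold and lower in 13 of 13 alternatives in both AMH comparisons, with log2 ratios from -1.78 to -0.74 and from -1.76 to -0.72. Wt1 in granulosa-like cells was past it in 12 of 13 in both, Emx2 in 7 and 5 of 13. Of the values of single pairs under an alternative, 780 moved by less than the counting interval and 144 by more. No paired analysis was possible because each group is 1 library. Counting error is small for the large classes. The limits are the single library per group, the rebuilt classes, and depths that differ between libraries of a class.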

Other observations

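Cells left out of the classes also held granulosa factors. In the unnamed cluster led by Kcnq5 and Bmpr1b, the second being a receptor for bone morphogenetic proteins, Nr5a2 was at 498, 425, 338 and 321 CPM and Wt1 at 147, 124, 128 and 106 CPM in the libraries listed as control, doxorubicin, doxorubicin+AMH, AMH, which held 500, 394, 292 and 570 of its cells. Its Nr5a1, at 24.1, 26.3, 26.3 and 23.2 CPM, was about as high in the libraries with AMH as in those without. In the cluster led by B230209E15Rik, with 177 cells in the doxorubicin library and 1 in the AMH library, Foxl2 was at 135 CPM, Gata4 at 265 CPM and Nr5a2 at 455 CPM in the doxorubicin library.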
